A study of Homo sapiens with 9 samples.

Results

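The comparison described here set human cells treated with the siRNA si1-BCLIN25 against cells treated with the siRNA si2-BCLIN25, by RNA sequencing. It used 6 of the 9 libraries of the study, 3 titled si1-BCLIN25 and 3 titled si2-BCLIN25, and every gene that reached 1 FPKM in 3 or more of those 6 libraries. FPKM counts fragments relative to transcript length and to the mapped fragments of the library. Of 18064 genes in the table, 12163 met that rule. The titles place both siRNA groups, and the 3 libraries of the control siRNA si-NC, in MDA-MB-231/PTX, which is MDA-MB-231, a triple-negative breast cancer line, made resistant to paclitaxel and grown in RPMI medium with serum. Both siRNAs are said to target the RNA BCLIN25, which the title of the study relates to the microRNA miR-125b, drug resistance and the epithelial-mesenchymal transition. The source and treatment labels of the same libraries name another line, PC9/GR, a lung adenocarcinoma line resistant to gefitinib, another RNA, HUMT, and shRNAs in place of siRNAs. The labels therefore do not settle the cells, the targeted RNA or the reagent, and the groups are called here by their titles. BCLIN25 was not analysed here, so the level of the targeted RNA under either siRNA is not given, and no siRNA sequence was used here.

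A small interfering RNA is loaded into an Argonaute protein and guides it to RNAs of matching sequence, which are cut and degraded. Its seed, a short stretch near its 5′ end, can also pair with RNAs other than the target and lower them. Knockdown studies therefore often use siRNAs of different sequence against the same RNA, and the comparison between them shows where their transcriptomes part.

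The 6 libraries were alike in composition. Their FPKM summed to between 408641 and 419025, and between 12091 and 12139 genes reached 1 FPKM in each. Depth is unknown, since the table holds no counts. No label says that the replicates came from separate cultures, so the p-values rest on a spread that may be only technical. In bulk RNA, fewer cells of a type and less RNA per cell cannot be told apart. All 4 basal epithelial markers and all 6 epithelial markers reached 1 FPKM in all 6 libraries: KRT5, a basal keratin, lay between 1208 and 1369 FPKM, TP63 between 60.4 and 66.2 FPKM and EPCAM between 92.7 and 107.5 FPKM. The lung adenocarcinoma markers NKX2-1 and NAPSA stayed under 1 FPKM, with SFTPB between 1.33 and 1.96 FPKM. The luminal marker PGR did not exceed 0.01 FPKM, while GATA3 was at 14.7 to 18.2 FPKM, FOXA1 at 5.64 to 6.58 FPKM and ESR1, the oestrogen receptor, at 3.95 to 4.46 FPKM. These levels were not compared with profiles of MDA-MB-231 or PC9, so they do not settle which cells were used. Of 8 fibroblast markers 3 reached 1 FPKM in all 6 libraries, and the summed level of all 8 was 27.9 to 29.8 FPKM under si1-BCLIN25 and 27.1 to 28.7 FPKM under si2-BCLIN25. Of the leukocyte markers LAPTM5 was called higher under si1-BCLIN25, at 40.8 to 42.1 FPKM against 36.3 to 37.1 FPKM under si2-BCLIN25, with PTPRC between 0.85 and 1.61 FPKM in the 6 libraries.

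The siRNA groups differed from each other by little more than their own replicates. The distance between 2 libraries, taken as the root mean square difference of log2(FPKM + 1) over the 12163 genes, was 0.134 to 0.163 between si1-BCLIN25 and si2-BCLIN25 libraries. It was 0.131 to 0.137 among the si1-BCLIN25 libraries and 0.118 to 0.128 among the si2-BCLIN25 libraries. Against the si-NC libraries it was 0.492 to 0.508 for si1-BCLIN25 and 0.481 to 0.489 for si2-BCLIN25. The column names of si-NC have an extra, unexplained prefix, so separate handling of these libraries and the effect of the control siRNA cannot be told apart.

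**Figure D1:**
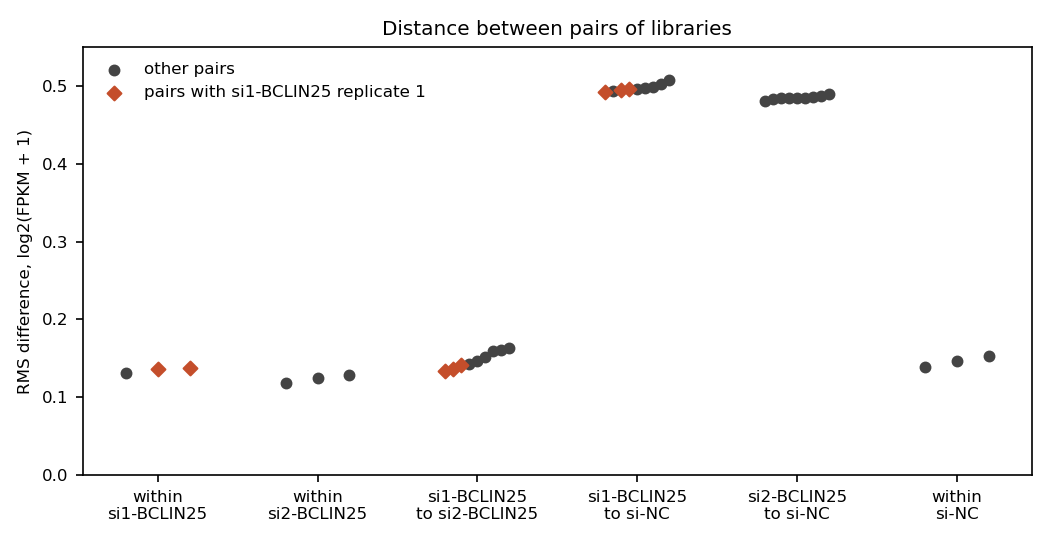
Each point is 1 pair of libraries; the vertical axis is the root mean square difference of log2(FPKM + 1) over the 12163 genes, and columns are the kinds of pair. Pairs between si1-BCLIN25 and si2-BCLIN25 (0.134 to 0.163) start inside the range of the pairs within si1-BCLIN25 (0.131 to 0.137), and pairs with si-NC lie near 0.5; orange diamonds mark pairs with si1-BCLIN25 replicate 1.

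One library stood between the groups. Replicate 1 of si1-BCLIN25 lay on average 0.137 from its own group and 0.137 from the si2-BCLIN25 libraries. Each of the other 5 siRNA libraries was closer to its own group, replicate 2 of si1-BCLIN25 for example with means of 0.134 and 0.157. The first principal component of the 6 libraries held 35.5% of the variance and gave scores of 1.62, 8.28 and 6.79 to the si1-BCLIN25 libraries, against -3.91, -7.26 and -5.52 for the si2-BCLIN25 libraries. The groups did not overlap on this axis, and replicate 1 of si1-BCLIN25 was the si1-BCLIN25 library nearest to si2-BCLIN25.

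Differences between the siRNAs were small in size, and their number depended on the settings of the fit. Under the alternatives given further on, from 4 to 615 genes were called. By limma with Benjamini-Hochberg adjustment at 0.05, 246 genes were called, 2.02% of the genes tested. Of these 120 (0.987%) were higher and 126 (1.04%) lower under si1-BCLIN25. At an unadjusted p under 0.05 there were 2506 genes (20.6%). The libraries of the groups did not overlap for 3166 genes (26.0%), 1441 of them (11.8%) higher and 1725 (14.2%) lower under si1-BCLIN25. All 246 called genes were among these 3166, so non-overlap adds no support to a call. The median absolute log2 fold change was 0.063 over all genes and 0.23 over the called genes, a fold of 1.17, and 48.0% of all genes had a log2 fold change above 0. Fold changes throughout are si1-BCLIN25 minus si2-BCLIN25 on the log2(FPKM + 1) scale, which understates the change of low genes.

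Only 5 called genes (0.0411%) reached 1.5-fold on that scale: PI3, RHOV and LY6D were higher and VIM and TMEM183BP lower under si1-BCLIN25. RHOV, an atypical small GTPase, was at 4.62, 4.09 and 4.14 FPKM under si1-BCLIN25 and at 2.05, 2.74 and 2.43 FPKM under si2-BCLIN25 (log2 fold change 0.64 ± 0.08 SE, limma adjusted p = 0.011). LY6D, a lipid-anchored surface protein of squamous epithelium, was at 5.70, 6.23 and 5.39 FPKM against 3.03, 4.52 and 3.11 FPKM (0.59 ± 0.11 SE, limma adjusted p = 0.035). Neither gene's groups overlapped. TMEM183BP is a pseudogene copy whose reads may belong to its parent gene, and its values of 1.10, 0 and 0 FPKM under si1-BCLIN25 and 1.87, 4.10 and 1.58 FPKM under si2-BCLIN25 are uncertain. RHOV, LY6D and TMEM183BP were singled out after their values were seen.

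The number of calls changed when single libraries were left out. Each such fit has 1 library fewer and so less power, and this was not told apart from the library left out. With all 6 libraries 246 genes were called. The number rose to 615 without replicate 1 of si1-BCLIN25, and was 11 without its replicate 2 and 22 without its replicate 3. It was 22 without replicate 1 of si2-BCLIN25, 10 without its replicate 2 and 11 without its replicate 3. PI3, S100A8, VIM, LSM7, KRT80 and the gene with identifier 103344718, which matched no symbol, were called in all 6 of these fits. Every other call named in the text was lost in at least 1 of them. PI3, S100A8 and VIM were also called under all 15 alternatives tried.

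PI3 showed the largest called difference among genes at or above the median level. PI3 encodes elafin, an inhibitor of neutrophil elastase made by squamous epithelium. It was at 18.2, 17.9 and 17.4 FPKM in the si1-BCLIN25 libraries, against 9.42, 8.84 and 9.89 FPKM in the si2-BCLIN25 libraries. In the si-NC libraries it was at 18.9, 17.2 and 13.1 FPKM. The si1-BCLIN25 libraries all lay above the si2-BCLIN25 libraries and within the range of the si-NC libraries. The log2 fold change was 0.86 ± 0.048 (SE, n = 3 libraries each, limma adjusted p = 4.3e-05), a fold of 1.90 in FPKM.

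VIM, vimentin, the intermediate filament protein of mesenchymal cells, was the called gene at or above the median level with the largest fall. It was at 14.2, 13.5 and 14.9 FPKM in the si1-BCLIN25 libraries, against 22.3, 22.4 and 22.6 FPKM in the si2-BCLIN25 libraries. In the si-NC libraries it was at 80.9, 81.3 and 80.5 FPKM. The 3 groups did not overlap, with si1-BCLIN25 lowest and si-NC highest. The log2 fold change between the siRNAs was -0.63 ± 0.043 (SE, n = 3 libraries each, limma adjusted p = 0.00012).

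S100A8 and S100A9, which pair to form the antimicrobial protein calprotectin, were both higher under si1-BCLIN25. S100A8 was at 191, 203 and 197 FPKM under si1-BCLIN25, at 135, 142 and 139 FPKM under si2-BCLIN25 and at 8.58, 7.09 and 6.33 FPKM under si-NC (log2 fold change between the siRNAs 0.51 ± 0.035 SE, limma adjusted p = 0.00012). S100A9 was at 2301, 2510 and 2556 FPKM under si1-BCLIN25 and at 1955, 1993 and 1955 FPKM under si2-BCLIN25, with 534, 481 and 493 FPKM under si-NC. Its log2 fold change was 0.32 ± 0.043 (SE, limma adjusted p = 0.013). For both genes all si1-BCLIN25 libraries were above all si2-BCLIN25 libraries. Of 12 S100 genes tested, S100A14 fell, at 9, 9.67 and 9.41 FPKM against 11.9, 12.8 and 11.2 FPKM under si2-BCLIN25, and 9 were not called. The median of the list was 0.04, against -0.0044 over all genes tested, of which 2.02% were called.

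The other rises among the 12 largest were SPRR1B, identifier 103344718, FGFBP1, CCL20, ERCC5, TP53I3, LSM7, PQBP1 and KLK10, with log2 fold changes between 0.32 and 0.53. FGFBP1, a secreted carrier of fibroblast growth factors, was at 25.6, 25.0 and 28.5 FPKM under si1-BCLIN25 and at 18.9, 18.9 and 20.6 FPKM under si2-BCLIN25. LSM7, a subunit of the ring that binds U6 small nuclear RNA, was at 79.3, 81.0 and 81.1 FPKM against 65.9, 62.0 and 63.3 FPKM. PQBP1, a splicing-associated protein, was at 42.2, 43.8 and 44.0 FPKM against 34.7, 32.1 and 36.1 FPKM. In each of the 3 the groups did not overlap, as the choice of the 12 largest required. ERCC5, a nuclease of excision repair, was at 13.4, 13.9 and 17.1 FPKM against 11.5, 10.9 and 11.7 FPKM, but it shares its sequence with the readthrough gene BIVM-ERCC5. The sum of both rows was 22.6 ± 0.18 FPKM under si1-BCLIN25 and 22.5 ± 1.03 FPKM under si2-BCLIN25 (SD, n = 3), so reads may have been split differently between them, and the rise of ERCC5 is uncertain.

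The other falls among the 12 largest were CCDC85B, TMEM40, LGALS3, KRT80, RNASE7, DYNLT3, TCEAL9, GNG11, FAM91A1, GNG10 and TMEM126B, with log2 fold changes between -0.41 and -0.27. LGALS3, the sugar-binding protein galectin-3, was at 23.6, 21.2 and 23.1 FPKM under si1-BCLIN25 and at 28.8, 33.4 and 27.1 FPKM under si2-BCLIN25. RNASE7, an antimicrobial ribonuclease of skin, was at 14.1, 15.1 and 14.9 FPKM against 17.95, 19.97 and 19.66 FPKM, with 40.7, 40.1 and 38.2 FPKM under si-NC. GNG11 and GNG10 encode gamma subunits of heterotrimeric G proteins. GNG11 was at 14.3, 15.7 and 16.7 FPKM under si1-BCLIN25 and at 20.02, 19.63 and 18.03 FPKM under si2-BCLIN25, and GNG10 at 72.5, 65.1 and 67.3 FPKM against 79.3, 87.0 and 82.2 FPKM. Non-overlap of the siRNA groups was part of the rule that chose these 11 genes.

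**Figure D2:**
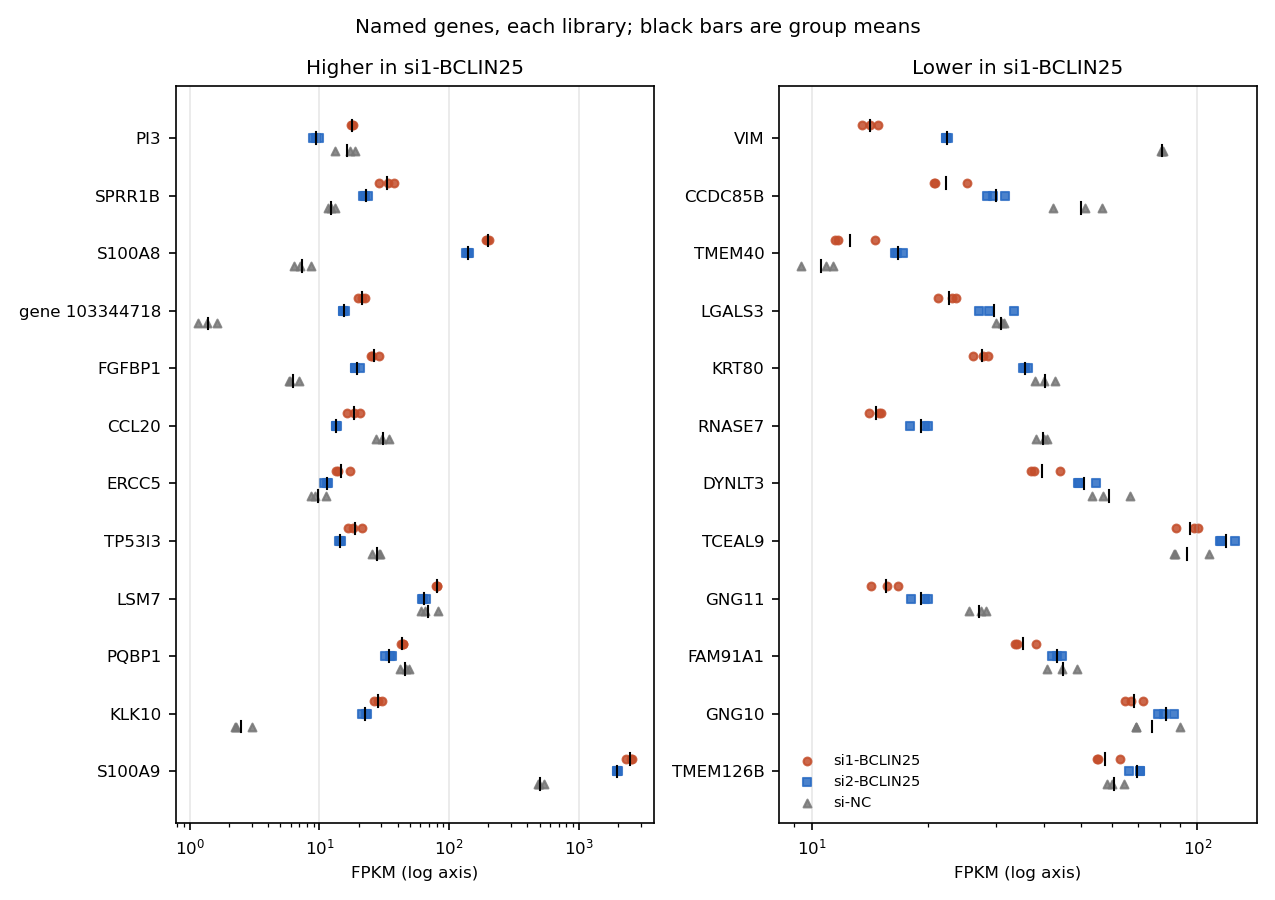
FPKM (log axis) of the 12 largest rises (left) and 12 largest falls (right) among called genes at or above the median level, 1 point per library, with group means as black bars. Orange circles are si1-BCLIN25, blue squares si2-BCLIN25 and grey triangles si-NC. Only genes whose siRNA groups do not overlap were chosen, and for VIM si-NC (80.5 to 81.3 FPKM) lies far above both siRNA groups.

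Genes of the epidermal barrier included several of the rises. These genes are switched on as squamous epithelium matures and encode cornified envelope precursors, protease inhibitors and skin proteases. Of 27 listed symbols, in which LOR and LORICRIN name the same gene, 21 passed the expression filter. Of those, 6 rose (0.987% of all genes tested rose), 0 fell and 15 were not called. The median log2 fold change of the 21 was 0.16, and 18 lay above 0, as did 48.0% of all genes. Besides PI3 the rises were SPRR1B, SLPI, KLK10, SERPINB4 and SERPINB3. With the length and GC trends described further on removed, 7 members were called and the median was 0.12. The count was 1 without replicate 2 or 3 of si1-BCLIN25, 2 without replicate 1 of si2-BCLIN25 and 1 without its replicate 2 or 3.

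SPRR1B, a small proline-rich precursor of the cornified envelope, was at 28.6, 37.5 and 33.9 FPKM under si1-BCLIN25 and at 21.7, 22.5 and 23.8 FPKM under si2-BCLIN25, with 12.2, 13.3 and 11.6 FPKM under si-NC (log2 fold change between the siRNAs 0.53 ± 0.08 SE, limma adjusted p = 0.022). SLPI, a secreted inhibitor of leukocyte elastase, was at 97.1, 104.1 and 103.1 FPKM against 85.1, 77.1 and 82.2 FPKM under si2-BCLIN25. KLK10, a kallikrein-related peptidase, was at 26.4, 30.4 and 28.1 FPKM against 23.2, 22.9 and 21.3 FPKM, and at 2.23, 3.00 and 2.26 FPKM under si-NC. All si1-BCLIN25 libraries exceeded all si2-BCLIN25 libraries for these genes. SERPINB3 and SERPINB4, squamous cell inhibitors of cysteine and serine proteases, are near-identical and may share reads. Their summed level was 59.5 ± 1.74 FPKM under si1-BCLIN25 and 50.8 ± 1.79 FPKM under si2-BCLIN25 (SD, n = 3), again without overlap. Not every barrier gene lay higher. Outside the list, and chosen after their values were seen, SCEL, a cornified envelope precursor, averaged 20.98 FPKM under si1-BCLIN25 and 23.92 FPKM under si2-BCLIN25 and fell (limma adjusted p = 0.044), as did the epidermal serpin SERPINB7, at 10.3 against 12.3 FPKM (limma adjusted p = 0.039). In the list, CNFN averaged 3.67 ± 0.33 FPKM under si1-BCLIN25 and 4.42 ± 0.29 FPKM under si2-BCLIN25 (limma adjusted p = 0.12), and SERPINB2 23.1 ± 1.06 against 24.9 ± 0.42 FPKM (limma adjusted p = 0.21).

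The promoter of SPRR1B is shown because it holds a repeated AP-1 motif, a motif bound by FOS and JUN family factors. In RefSeq promoters of GRCh38.p14, from 250 bases before to 50 after the start, TGANTCA was searched on both strands. It was present in 9 of the 19 barrier genes with a promoter in the table (47.4%), against 9.37% of all genes there. SPRR1B was the only called rise among those 9. They also included SERPINB2, which averaged lower under si1-BCLIN25, and LORICRIN, which was not tested. The search was planned for the immediate early list, where 1 of 18 genes with a promoter (5.56%) held the motif. The motif was looked up for the barrier genes after their values were seen, and a match is no measure of binding. The stretch of SPRR1B at chr1:153031017-153031143, plus strand, has matches in capitals, 141 and 111 bases before the start.
SPRR1B: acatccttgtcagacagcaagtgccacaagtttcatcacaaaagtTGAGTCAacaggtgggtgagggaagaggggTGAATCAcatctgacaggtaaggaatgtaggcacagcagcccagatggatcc

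Keratins were mixed. Of 14 tested, KRT13 and KRT17 rose, KRT80 fell and 11 were not called, with a median log2 fold change of 0.11. Over all genes tested 0.987% rose and 1.04% fell. KRT17, a keratin of basal and stressed epithelium, was at 960, 1042 and 1001 FPKM under si1-BCLIN25, at 854, 868 and 878 FPKM under si2-BCLIN25 and at 113, 118 and 116 FPKM under si-NC. KRT13, of non-cornified stratified epithelium, was at 9.35, 10.5 and 10.4 FPKM against 6.91, 6.68 and 8.64 FPKM under si2-BCLIN25, and did not exceed 0.28 FPKM under si-NC. KRT80, which is linked to desmosomes in differentiating epithelium, was at 27.8, 28.7 and 26.3 FPKM against 35.7, 35.3 and 36.4 FPKM (log2 fold change -0.36 ± 0.04 SE, limma adjusted p = 0.0067). The siRNA groups did not overlap for these 3 genes.

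Genes of cholesterol synthesis and uptake lay higher under si1-BCLIN25 as a list, by small amounts. The enzymes of this pathway turn acetyl-CoA into cholesterol and are switched on by SREBP2 when sterols are low. All 25 listed genes were tested: 6 rose, against 0.987% of all genes tested, 0 fell and 19 were not called. Their median log2 fold change was 0.13, 23 lay above 0, against 48.0% of all genes, and for 18 every si1-BCLIN25 library exceeded every si2-BCLIN25 library, against 11.8% of all genes tested. In order along the pathway the rises included ACAT2 and HMGCS1 at the entry, FDFT1, which makes squalene, and HSD17B7 and DHCR7 in the late steps.

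DHCR7, which catalyses the last step to cholesterol, was at 40.8, 42.6 and 38.2 FPKM under si1-BCLIN25 and at 33.4, 32.3 and 32.9 FPKM under si2-BCLIN25, with 33.3, 34.7 and 33.3 FPKM under si-NC (log2 fold change between the siRNAs 0.29 ± 0.043 SE, limma adjusted p = 0.02). FDFT1 was at 170, 179 and 187 FPKM against 156, 153 and 154 FPKM under si2-BCLIN25. HMGCS1 was at 66.4, 63.3 and 65.7 FPKM against 56.4, 58.0 and 59.8 FPKM. The groups were apart for each, by margins of 1.12-fold to 1.23-fold in mean FPKM. SREBF2, which encodes the factor SREBP2, averaged 40.8 ± 1.57 FPKM under si1-BCLIN25 and 40.2 ± 1.09 FPKM under si2-BCLIN25 (SD, n = 3, limma adjusted p = 0.80). CYP51A1 and SC5D were the 2 members with log2 fold changes under 0, at -0.03 and -0.05.

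The calls in this list depended on the libraries more than its median did. The median stayed between 0.11 and 0.14 with each library left out and was 0.11 with length and GC trends removed, when 5 members were called. The number called was 0 without replicate 2 of si1-BCLIN25 or without replicate 1, 2 or 3 of si2-BCLIN25, and 1 without replicate 3 of si1-BCLIN25. Of 12 fatty acid synthesis genes, FADS2 and SCD, both desaturases, rose, against 0.987% of all genes tested, and 10 were not called. The median of these 12 was 0.09. SCD was at 90.6, 92.0 and 88.5 FPKM under si1-BCLIN25 and at 79.2, 79.0 and 79.3 FPKM under si2-BCLIN25, without overlap. FASN, which builds the fatty acid chain, averaged 72.5 ± 3.96 FPKM against 64.7 ± 2.67 FPKM (limma adjusted p = 0.09). These 2 calls fell to 0 without replicate 2 of si1-BCLIN25 or any 1 replicate of si2-BCLIN25, and to 1 without replicate 3 of si1-BCLIN25.

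**Figure D3:**
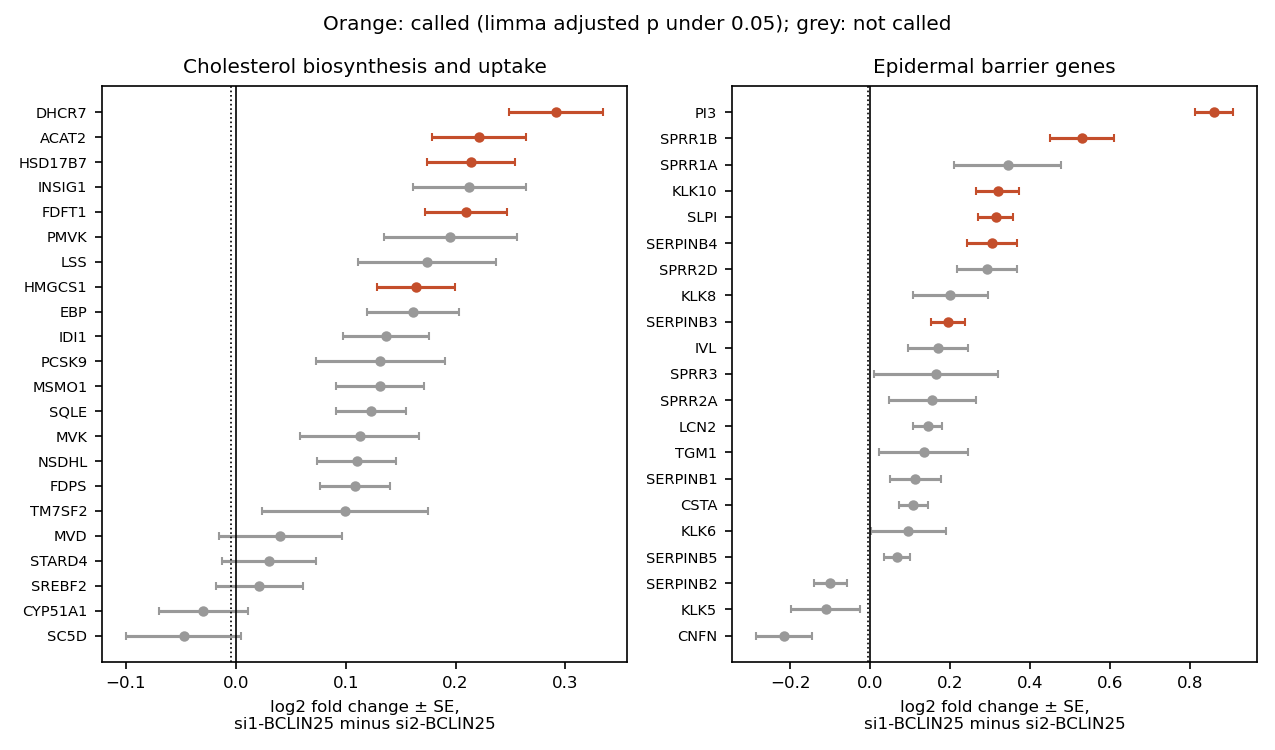
Log2 fold change of FPKM + 1 with its standard error, si1-BCLIN25 minus si2-BCLIN25, for tested members of the cholesterol list (left, those reported here) and of the epidermal barrier list (right, all 21). Called genes are orange and others grey, the solid line is 0 and the dotted line the median of all genes (-0.0044); of the cholesterol genes drawn CYP51A1 and SC5D lie left of 0, and 18 of the 21 barrier genes lie right of 0.

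Promoters of cholesterol genes are shown because their members lay on the same side. The sterol response element was searched as TCACNCCAC and CCAAT, the box bound by NF-Y, as CCAAT, each on both strands of the same RefSeq window. The sterol element was found for 1 of 18 genes with a promoter in the table, SREBF2, against 1.39% of all genes. The CCAAT box was found for 16 of the 18 (88.9%), against 39.7% of all genes, and was looked up after the data were seen. The stretches lie at chr5:43313463-43313612, minus strand, for HMGCS1, at chr11:71448394-71448532, minus strand, for DHCR7 and at chr1:162790605-162790699, plus strand, for HSD17B7, with the box or its complement in capitals.
HMGCS1: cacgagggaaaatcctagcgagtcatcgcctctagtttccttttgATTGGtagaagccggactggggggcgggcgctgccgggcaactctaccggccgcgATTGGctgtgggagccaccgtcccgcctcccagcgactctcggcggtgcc
DHCR7: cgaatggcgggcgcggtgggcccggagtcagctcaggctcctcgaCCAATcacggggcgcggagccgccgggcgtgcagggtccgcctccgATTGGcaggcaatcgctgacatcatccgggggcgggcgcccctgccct
HSD17B7: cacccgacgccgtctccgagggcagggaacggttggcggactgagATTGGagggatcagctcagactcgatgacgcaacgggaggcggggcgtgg

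Some secreted and signalling genes were higher under si1-BCLIN25. Over all genes tested 0.987% rose and 1.04% fell. Of 28 NF-kB and inflammatory genes, CCL20, CCL2 and NFKBIA rose, 0 fell and 25 were not called, with a median of 0.02. CCL20, the ligand of the receptor CCR6, was at 16.2, 20.6 and 18.3 FPKM under si1-BCLIN25 and at 13.4, 13.3 and 13.7 FPKM under si2-BCLIN25, with 34.5, 27.4 and 30.6 FPKM under si-NC. CCL2, which attracts monocytes, was at 3.86, 3.39 and 3.85 FPKM against 2.2, 2.29 and 2.29 FPKM under si2-BCLIN25. NFKBIA, the inhibitor that holds NF-kB in the cytoplasm, was at 175, 176 and 178 FPKM against 159, 152 and 155 FPKM. The siRNA groups were apart for each of them. Of 14 matrix metalloproteinase and plasminogen genes, the collagenase MMP13 rose, at 13.6, 11.7 and 12.3 FPKM against 8.82, 9.56 and 8.97 FPKM, as did the protease inhibitor SERPINE2, and 12 were not called. Of 27 TGF-beta response genes, ID2 and ID3, which block the binding of basic helix-loop-helix factors to DNA, rose and 25 were not called. ID3 was at 121, 120 and 114 FPKM under si1-BCLIN25 and at 100.7, 93.0 and 96.1 FPKM under si2-BCLIN25, without overlap.

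Targets of YAP and TEAD lay lower under si1-BCLIN25 as a list. YAP is a coactivator that works with TEAD factors and responds to cell contact and tension. Of 16 tested, AXL and F3 fell, against 1.04% of all genes tested, 0 rose and 14 were not called. The median log2 fold change was -0.12, and 2 members lay above 0, against 48.0% of all genes. AXL, a receptor tyrosine kinase, was at 51.9, 49.7 and 52.3 FPKM under si1-BCLIN25, at 59.2, 59.6 and 58.0 FPKM under si2-BCLIN25 and at 94.2, 98.4 and 98.4 FPKM under si-NC. F3, tissue factor, was at 56.5, 52.7 and 54.8 FPKM against 64.7, 61.2 and 64.2 FPKM under si2-BCLIN25. Neither overlapped between the siRNAs. Of 12 EGFR family and related genes, AXL, which is in both lists, and MET fell. MET, the receptor of hepatocyte growth factor, was at 81.3, 76.2 and 75.7 FPKM against 87.6, 88.9 and 88.8 FPKM.

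Genes of the epithelial-mesenchymal transition, named in the title of the study, gave 2 calls between the siRNAs, outside the junction genes. Of 19 mesenchymal genes tested, VIM and LOXL2 fell, 0 rose and 17 were not called, with a median of 0.005. Over all genes tested 1.04% fell. LOXL2, a cross-linker of collagen, was at 19.3, 18.9 and 18.4 FPKM under si1-BCLIN25 and at 23.1, 21.9 and 22.4 FPKM under si2-BCLIN25. CDH2, N-cadherin, averaged 23.6 ± 0.52 FPKM under si1-BCLIN25 and 21.9 ± 0.41 FPKM under si2-BCLIN25 (limma adjusted p = 0.14). CDH1, E-cadherin, was at 44.9, 46.5 and 43.8 FPKM under si1-BCLIN25 and at 45.6, 44.6 and 44.8 FPKM under si2-BCLIN25, and the groups overlapped (limma adjusted p = 0.99). ZEB1, a repressor of CDH1, did not exceed 0.06 FPKM and was not tested. Of 24 epithelial junction genes, the desmosomal cadherin DSG2 fell and 23 were not called. RB1, named in the design text, averaged 1.70 ± 0.29 FPKM under si1-BCLIN25 and 1.80 ± 0.15 FPKM under si2-BCLIN25 and the libraries overlapped (limma adjusted p = 0.77).

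The immediate early and ATF4 lists held 1 call each and the glycolysis and hypoxia list 2, all lower under si1-BCLIN25. Over all genes tested 1.04% were called lower. FOSL1, an AP-1 subunit, was the 1 call among 17 immediate early genes, at 32.0, 31.6 and 30.9 FPKM under si1-BCLIN25, at 37.6, 38.5 and 36.7 FPKM under si2-BCLIN25 and at 188, 191 and 177 FPKM under si-NC. The siRNA libraries did not overlap. STC2, a secreted glycoprotein, was the 1 of 21 ATF4 genes called, at 15.98, 16.25 and 16.16 FPKM against 18.2, 18.2 and 18.4 FPKM under si2-BCLIN25. Of 26 glycolysis and hypoxia genes, CA9, a carbonic anhydrase induced by low oxygen, and the enolase ENO2 fell. CA9 was at 3.89, 4.04 and 2.91 FPKM against 5.18, 5.61 and 5.28 FPKM, and the other 24 were not called.

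Several subunits of the respiratory chain were higher under si1-BCLIN25. Of 36 nuclear subunits of the oxidative phosphorylation complexes, NDUFA2, NDUFS7, COX8A, NDUFS3, COX4I1 and COX5A rose (0.987% of all genes tested rose), 0 fell and 30 were not called. The median was 0.08, and 29 lay above 0, as did 48.0% of all genes. COX8A, of cytochrome c oxidase, was at 196, 213 and 224 FPKM under si1-BCLIN25 and at 176, 176 and 171 FPKM under si2-BCLIN25. NDUFA2, of complex I, was at 34.2, 32.5 and 33.7 FPKM against 28.8, 27.4 and 28.3 FPKM, and neither gene's libraries overlapped. The list had 9 calls without replicate 1 of si1-BCLIN25, and 0 without any other 1 of the 6 libraries. With length and GC trends removed 5 members were called, and the list median was 0.05. Of 28 listed mitochondrial ribosomal proteins MRPS2 and MRPS15 rose, and of 47 listed cytosolic ones RPS28 rose, a share near the 2.02% called over all genes. The 47 had a median of 0.07, and 36 lay above 0, against 48.0% of all genes. Outside these lists, and chosen after their values were seen, the mitochondrial ribosomal protein MRPL27 rose and MRPS6 fell, MRPS6 at a log2 fold change of -0.18 (limma adjusted p = 0.036). The cytosolic ribosomal protein RPL29, chosen likewise, rose, with means of 519 FPKM under si1-BCLIN25 and 449 FPKM under si2-BCLIN25 (limma adjusted p = 0.029). TMEM126B, an assembly factor of complex I, is among the largest falls named earlier.

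The lists of cell cycle, p53 and death genes held 1 or 2 calls each, and 2.02% of all genes tested were called. The 33 E2F and DNA replication genes and the 32 mitosis genes lay higher under si1-BCLIN25 as lists, with medians of 0.07 and 0.06. Above 0 were 25 and 23 of them, against 48.0% of all genes. Groups were apart and higher for 14 in each list, against 11.8% of all genes. They were apart and lower for 1 and 5, against 14.2%. MCM5, of the replicative helicase, rose among 33 E2F and DNA replication genes, at 30.5, 31.3 and 31.9 FPKM under si1-BCLIN25 and at 27.9, 27.0 and 27.3 FPKM under si2-BCLIN25. MAD2L1, of the spindle checkpoint, fell among 32 mitosis genes, at 59.8, 55.8 and 58.0 FPKM against 64.9, 64.5 and 65.2 FPKM. The groups were apart for both. TNFSF10, the death ligand TRAIL, rose among 22 BCL2 family and death receptor genes, at 42.8, 43.8 and 42.6 FPKM against 36.7, 37.3 and 37.0 FPKM under si2-BCLIN25, and at 3.16, 2.51 and 2.33 FPKM under si-NC. Of 18 p53 targets, TP53I3, an oxidoreductase, rose at 18.03, 16.7 and 21.2 FPKM against 14.7, 14.2 and 14.5 FPKM, and RRM2B, a ribonucleotide reductase subunit, fell at 7.26, 7.24 and 7 FPKM against 8.49, 8.5 and 8.73 FPKM. Neither overlapped. The call of H2AC18 among 15 histone genes is uncertain, since its row equals that of H2AC19.

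Of 32 reported targets of miR-125b, IGF2 rose and 31 were not called, a share near the 2.02% called over all genes, and the median was 0.05. Above 0 were 23 of the 32, against 48.0% of all genes. Groups were apart and higher for 12, against 11.8% of all genes, and apart and lower for 4, against 14.2%. At an unadjusted p under 0.05 by limma were 11, against 20.6%. IGF2, an embryonic growth factor, was at 125, 133 and 118 FPKM under si1-BCLIN25 and at 99.2, 110.2 and 106.6 FPKM under si2-BCLIN25, with 25.9, 29.8 and 24.4 FPKM under si-NC. The siRNA groups were apart. By limma 0 of 25 genes of tubulin, the target of paclitaxel, and of microtubules were called, with 7 at an unadjusted p under 0.05, a share near the 20.6% of all genes at that p. Of 10 drug efflux transporters tested 0 were called, with 1 at an unadjusted p under 0.05. By limma 0 of the 33 interferon-stimulated genes listed were called and 3 had an unadjusted p under 0.05, with a median of -0.02. IFITM3, an interferon-induced membrane protein outside the list and chosen after its values were seen, rose, with means of 103 FPKM under si1-BCLIN25 and 92.2 FPKM under si2-BCLIN25 (limma adjusted p = 0.035). IFIT5, an interferon-induced RNA-binding protein with the smallest p of that list, averaged 2.60 FPKM under si1-BCLIN25 and 3.25 FPKM under si2-BCLIN25 (limma adjusted p = 0.097). In all, 16 of the 40 gene lists held no call. The lowest median was that of the metallothioneins, metal-binding proteins, at -0.22 over 4 genes, of which 0 were called and 4 had an unadjusted p under 0.05, against 20.6% of all genes. MT1X averaged 97.7 ± 8.83 FPKM against 113.6 ± 6.61 FPKM (limma adjusted p = 0.09).

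**Figure D4:**
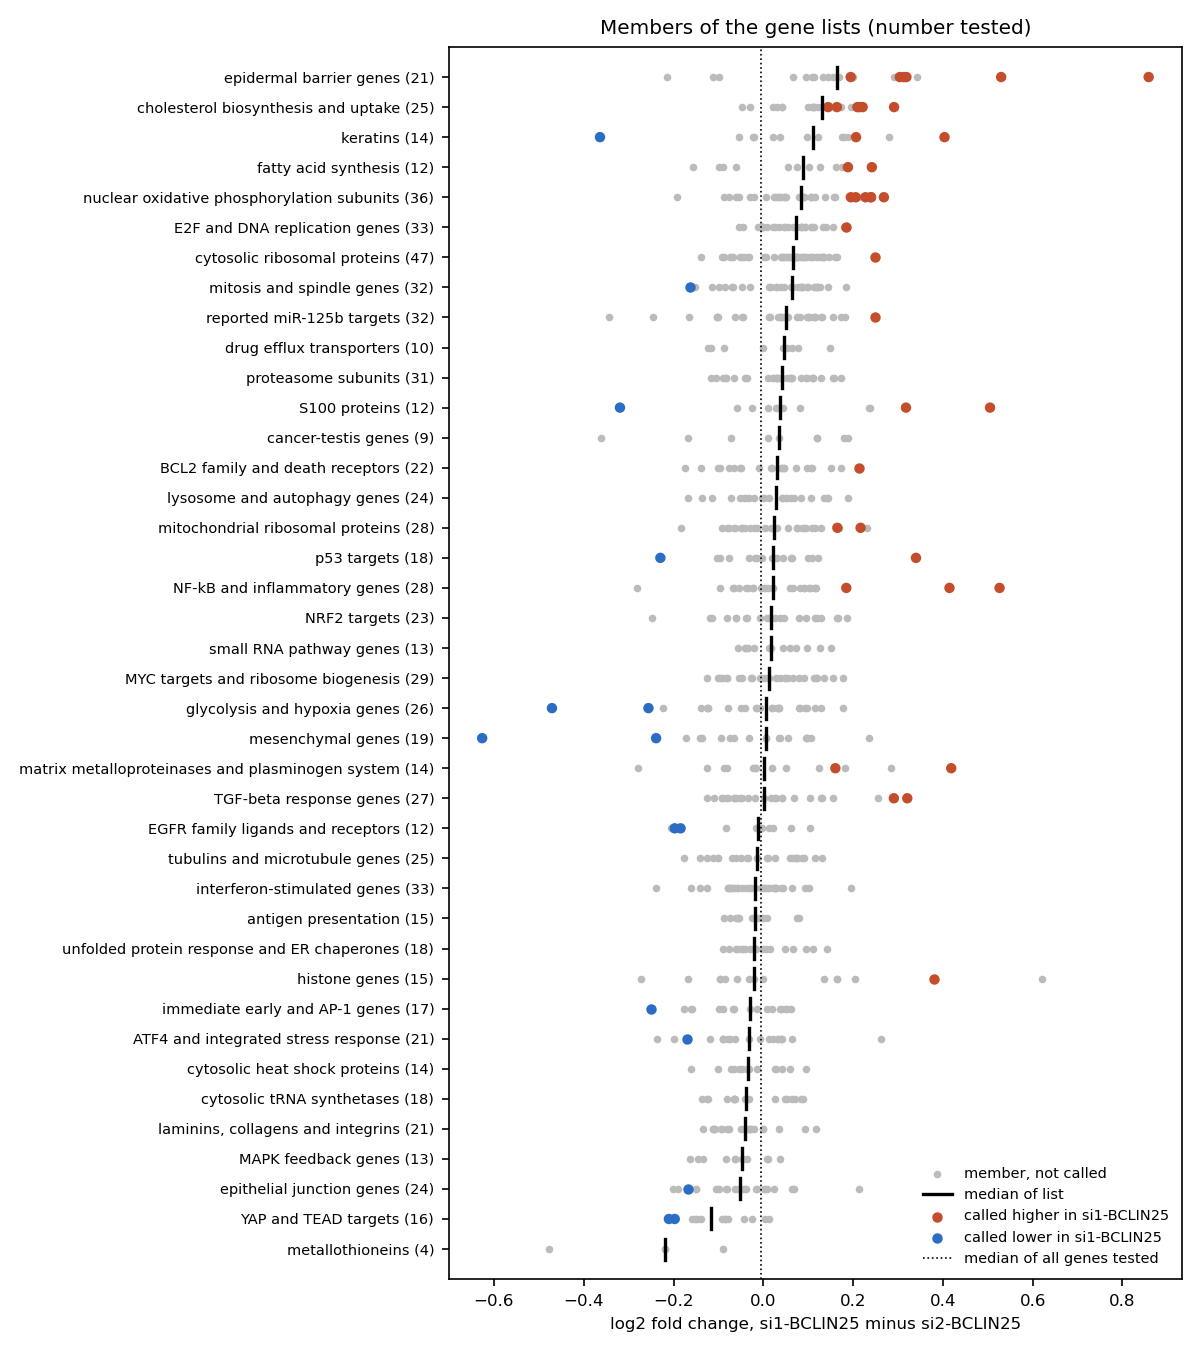
Each point is a tested gene of 1 of the 40 lists, placed by its log2 fold change of FPKM + 1, si1-BCLIN25 minus si2-BCLIN25; black bars are list medians, the dotted line is the median of all genes (-0.0044), and numbers tested are in brackets. Calls higher (orange) gather in the epidermal barrier, cholesterol and oxidative phosphorylation lists (6 each); list medians run from -0.22 (metallothioneins) to 0.16 (epidermal barrier).

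No called gene had its groups on opposite sides of 1 FPKM. At or above 1 FPKM in all si1-BCLIN25 libraries and under it in all si2-BCLIN25 libraries were 3 genes, SOX21, ALDH3A1 and SLCO5A1. The reverse held for 9 genes, among them IL1R2, CXorf58 and GOLGA8K. IL1R2, a decoy receptor of interleukin 1, was at 0.87, 0.54 and 0.94 FPKM under si1-BCLIN25 and at 1.18, 1.86 and 1.74 FPKM under si2-BCLIN25, against 14.6, 14.6 and 14.2 FPKM under si-NC (limma adjusted p between the siRNAs 0.055). SOX21, a transcription factor, was at 1.31, 1.55 and 1.5 FPKM against 0.98, 0.98 and 0.75 FPKM under si2-BCLIN25 (limma adjusted p = 0.06). These genes lie at the edge of the expression filter, where 1 FPKM separates small differences.

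The difference between the siRNAs moved with the GC content of the transcripts. Over the 12032 tested genes (98.9%) with a GENCODE v29 transcript, the log2 fold change had r = 0.28 with GC content and r = -0.09 with length, as descriptions across genes that share libraries. With the genes split into 10 equal groups by GC content, the group lowest in GC (median 36.9%) had a median log2 fold change of -0.07, with 3 genes called higher and 32 lower. In group 8 (median 56.1%) it was 0.04, with 25 called higher and 2 lower. The libraries were not alike: in the group lowest in GC the median deviation from the mean of the 6 libraries was 0.0005, -0.084 and -0.032 for si1-BCLIN25 and 0.019, 0.056 and 0.041 for si2-BCLIN25. Replicate 1 of si1-BCLIN25, which stood nearest to si2-BCLIN25, had the smallest of these deviations, and replicate 2 the largest in size. With length and GC trends removed, an alternative chosen after seeing the data, 184 genes were called, 92 each way, of which 127 were among the 246. The part of the GC trend in the differences between the siRNAs was not tested beyond that.

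**Figure D5:**
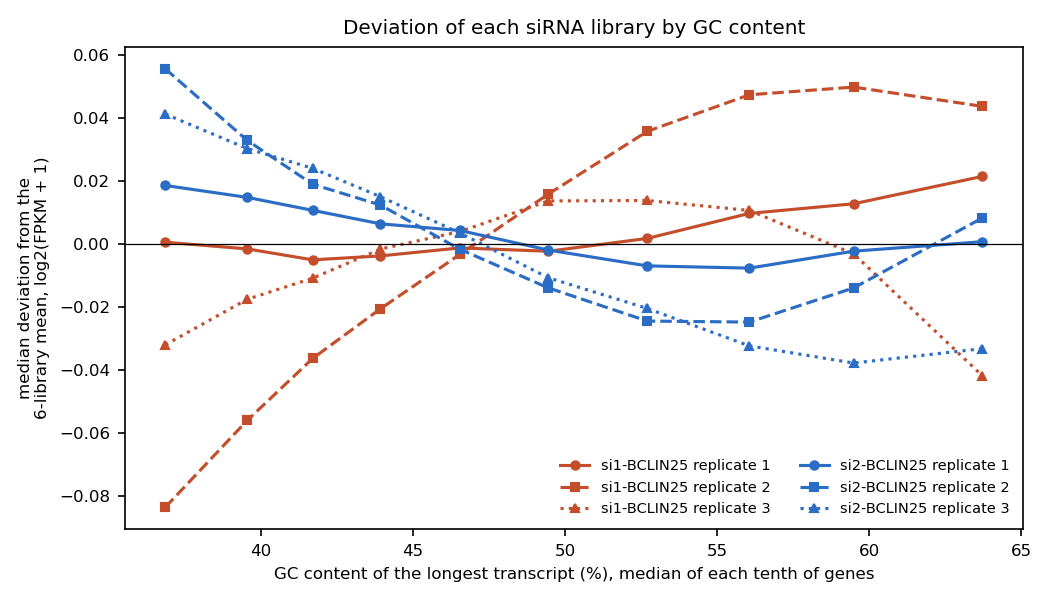
Median deviation of each siRNA library from the mean of the 6 libraries on the log2(FPKM + 1) scale (vertical axis), in 10 equal groups of genes ordered by the GC content in percent of their longest transcript (horizontal axis, group median); orange is si1-BCLIN25 and blue si2-BCLIN25. At the lowest GC, replicate 2 of si1-BCLIN25 lies at -0.084 and replicate 2 of si2-BCLIN25 at 0.056, while replicate 1 of si1-BCLIN25 stays at 0.0005.

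Runs of neighbouring genes differed by small amounts. In 231 windows of 50 tested genes in RefSeq chromosome order, the median log2 fold change ran from -0.09 to 0.07. Across windows it had r = 0.84 with their median GC content, as a description of windows that share libraries. The 4 windows with the largest medians in size were all lower under si1-BCLIN25. They ran up to TIPARP on chromosome 3 (-0.09), from GPR137C to WDR89 on chromosome 14 (-0.08), from DECR1 to AZIN1 on chromosome 8 (-0.08) and from EDIL3 to MCC on chromosome 5 (-0.07). Their median GC content lay between 39.1% and 41.0%, and they held 1, 2, 2 and 1 called genes, all lower.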

How the data were processed

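Total RNA of 9 libraries was extracted with Trizol and sequenced by BGI500 protocols, per the labels' protocols. The deposited values are FPKM per gene, per the file headers. The submitters' processing notes name RSEM 1.2.12, HISAT2 2.0.4, DESeq2 1.4.5 and Bowtie2 2.2.5, without their roles. For build and annotation the sources used here give nothing. FPKM hides depth, so no counting interval is given, and few abundant genes can shift all others.

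Groups came from the titles. Of the 12163 genes that reached 1 FPKM in 3 or more of the 6 siRNA libraries, 12091 matched a symbol, and 10 tested rows equalled another row in all 9 libraries. Group means of log2(FPKM + 1) over the 6 libraries were fitted by limma (version 3.58.1, eBayes with trend, R version 4.3.3), with Benjamini-Hochberg adjustment over all genes tested and a threshold of 0.05. Genes with an adjusted p under it are termed called, and only these are said to rise or fall. The fit was tested on simulated data.

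The members, lists and tests were chosen with earlier results of these data known. Named were, each way, the 12 called genes of largest change, apart between the groups and at or above the median level, up to 4 members with the smallest p of each list holding a call, RB1, VIM, CDH1, CDH2, ZEB1, and genes crossing 1 FPKM. Genes outside this rule that are described with values (other list members, called genes at 1.5-fold) were chosen after their values were seen. Lists are given by counts and medians only. The 15 alternatives covered the pseudocount, filter, scaling, trend, libraries fitted, replicate block, each library left out, and length and GC. Some members of the lists are not reported here.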

Additional observations from a re-analysis of the deposited data

How the results depend on the processing

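The replicate numbers did not pair the samples: same-numbered libraries deviated from their group means with r of -0.12, -0.0076 and 0.018. With the number as a replicate block 35 genes were called, 28 higher and 7 lower under si1-BCLIN25. Counts without 1 library ran from 10 to 615 genes in all, from 8 to 305 higher, from 2 to 310 lower, and from 2 to 12 at 1.5-fold or more. Without limma's trend 14 genes were called (10 higher, 4 lower, 3 at 1.5-fold), with all 9 libraries in the fit 72 (38 higher, 34 lower), and with no filter on low values 4 (3 higher, 1 lower, 2 at 1.5-fold). A minimum of 5 FPKM gave 361 calls, 196 of them lower and 3 at 1.5-fold. A pseudocount of 0.1 gave 8 calls at 1.5-fold and removing length and GC trends gave 3. The causes were not tested. Quantile normalization (202 calls) and median centring (215) kept every count within 1.5 times. Of the 65 called genes named by rule or at 1.5-fold none changed direction under the 15 alternatives. The uncalled RB1 turned to a log2 fold change of 0.018 with length and GC trends removed, and ran from -0.14 to 0.014 with 1 library left out. The uncalled CDH1 turned to -0.0026 with those trends removed, and ran from -0.021 to 0.022 with 1 library left out. The smallest log2 fold change in size among called genes was 0.14, and depth is unknown.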

Other observations

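Further genes outside the lists also parted the siRNAs; they were chosen after their values were seen, and each call was lost with at least 1 library left out. Annexins, which bind membranes in the presence of calcium, were called in both directions. ANXA5 was at 183, 179 and 182 FPKM under si1-BCLIN25 and at 207, 210 and 210 FPKM under si2-BCLIN25 (limma adjusted p = 0.017), and ANXA1 at 641, 639 and 643 FPKM against 709, 718 and 719 FPKM. ANXA8L1, which may share reads with its near-identical paralogs, was at 78.9, 80.0 and 78.6 FPKM against 67.8, 71.8 and 72.4 FPKM. The insulin-like growth factor binding proteins IGFBP6 and IGFBP7 fell, and IGFBP3 rose, at 423, 420 and 441 FPKM against 385, 383 and 388 FPKM. No group overlapped in these genes.

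Genes of the cytoskeleton were called in both directions. AHNAK, a large scaffold protein, was at 51.4, 49.4 and 47.5 FPKM under si1-BCLIN25 and at 60.0, 61.5 and 57.2 FPKM under si2-BCLIN25, and the focal adhesion protein VCL at 34.1, 33.8 and 32.6 FPKM against 37.2, 38.5 and 39.4 FPKM. CAPN2, CAVIN1, FLNC, ARPC5 and LCP1 were also called lower, while EVL, ADD1, TMSB15A and CDC42EP4 were called higher, as was ACTB, at 1634, 1707 and 1665 FPKM against 1503, 1482 and 1483 FPKM. The complement genes C3 and CFB rose, CFB at 8.08, 7.63 and 7.71 FPKM against 6.11, 5.84 and 6.06 FPKM. The checkpoint ligand CD274 fell, at 2.73, 3.10 and 2.54 FPKM against 3.79, 3.62 and 4.24 FPKM, and the growth factor CSF3, which raises neutrophils, rose, at 18.68, 21.04 and 19.97 FPKM against 16.4, 15.7 and 16.6 FPKM. The groups were apart in each.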
